A study of Mus musculus with 6 samples.

Results

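Otud1, Abra, Ccn5 and the processed pseudogene Gm6969 are 4 genes of 54838 counted, annotated on chromosomes 2, 15, 2 and 12, whose levels in old mouse atria parted the same libraries as the level of Prkce on chromosome 17. They were chosen from the measured values themselves: each was called in a comparison of 4 libraries picked by their Prkce level, and each has its 3 libraries with low Prkce wholly on one side of its 3 libraries with high Prkce, as do 12% of all genes tested. All 4 members were found in the count table, and all 4 are among the 14708 genes that passed the filter on low counts and were tested. In the libraries low in Prkce, Otud1 and Abra were lower and Ccn5 and Gm6969 higher. Because this split chose the genes, their levels along it are given as a description with no test.

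Prkce encodes protein kinase C epsilon (PKC-epsilon), which diacylglycerol activates without a need for calcium, which then moves to membranes and the contractile apparatus, and which is known in heart muscle for its part in protection from ischaemia and in hypertrophic growth. Otud1 encodes a deubiquitinase of the ovarian tumour (OTU) family, an enzyme that removes ubiquitin chains from signalling proteins, among them SMAD7, YAP and p53. Abra encodes STARS, a striated-muscle protein that binds actin and, by promoting actin assembly, drives the coactivators of the MRTF family into the nucleus, where they act with serum response factor (SRF). Ccn5, earlier named Wisp2, encodes a secreted matricellular protein of the CCN family that lacks the C-terminal domain of its relatives and is known in mouse heart as a brake on fibrosis. Gm6969 is annotated as a processed pseudogene, a copy of a spliced transcript pasted back into the genome.

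The study compared atrial RNA of old PKC-epsilon knockout (KO) mice and old wild-type (WT) controls, 3 of each, with an average age of 20.9 ± 0.43 months (the kind of error is not stated) and both sexes. The labels give the KO line as JAX stock #004189 and the WT line as C57BL/6J, and 1 library was made per mouse from whole atrial tissue, so that fewer cells of a type and less RNA per cell cannot be told apart. For 4 of the 6 libraries the labels contradict each other, with one genotype in the library name (and so in the table's columns) and the other in the title, the genotype field and the mouse line. Here KO and WT replicates are named by library name; by the genotype field, KO replicate 1, WT replicate 2 and WT replicate 3 are KO, and KO replicate 2, KO replicate 3 and WT replicate 1 are WT.

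Prkce itself follows neither reading in all libraries. In rising order its level was 5.15 CPM (the gene's count scaled to a common library total, with TMM factors) in KO replicate 2, 9.20 in KO replicate 1, 11.7 in WT replicate 2, 28.6 in KO replicate 3, 30.2 in WT replicate 3 and 36.2 in WT replicate 1. The libraries at odds with their library name are thus WT replicate 2 and KO replicate 3, and those at odds with their genotype field are KO replicate 2 and WT replicate 3. Below, the libraries named KO replicate 2, KO replicate 1 and WT replicate 2 are called Prkce-low and the other 3 Prkce-high; these are not groups of the study, and no mean or test is taken over them. In numbers that bear on every value, total counts ran from 11574206 to 17601422 in the Prkce-low and from 16259438 to 24138824 in the Prkce-high libraries. These ranges overlap, but the shallowest libraries were WT replicate 2 and KO replicate 2 and the deepest WT replicate 3 and KO replicate 3. Mitochondrial transcripts took 17.4% to 19.5% of the counts per library. The first principal component held 38.8% of the variance and set WT replicate 1 (-46.8) and WT replicate 2 (30.7) at opposite ends. The rest lay between -5.96 and 10.5. Summed markers of atrial cardiomyocytes (Myl7, Myl4, Sln, Nppa, Bmp10, Kcnj3, Tbx5 and Myh6, of which none was at 0 in all libraries) reached 38669 to 49675 CPM in the Prkce-low libraries and 40766 to 46192 CPM in the Prkce-high libraries. Those of ventricular muscle reached 153 to 700 CPM and 289 to 442 CPM in these libraries.

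Otud1 (ENSMUSG00000043415, chr2:19657752-19660583, GRCm38, plus strand, no other annotated gene over its body) was the most sharply parted of the 4. Its level was 23.0 CPM in KO replicate 2, 21.0 CPM in KO replicate 1 and 21.3 CPM in WT replicate 2, from 317, 369 and 253 counts. It was 66.6 CPM in KO replicate 3, 86.9 CPM in WT replicate 3 and 69.4 CPM in WT replicate 1, from 1361, 1983 and 1157 counts. The Prkce-low libraries were alike, with 95% Poisson intervals that overlap (18.7 to 25.7 CPM over the 3), while in the Prkce-high libraries WT replicate 3 stood above the other 2. The nearest libraries of the 2 sets were 1.51 apart on the log2(CPM + 0.5) scale, a 2.86-fold gap. Among the 14708 genes tested, 1 had a wider gap, the long non-coding gene AC122818.4 (chr17:87454969-87460364), which lies on the same chromosome as Prkce (chr17:86167785-86657919) and does not overlap it. Prkce itself had a gap of 1.26.

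The Otud1 promoter is shown because this gene had the widest gap of the 4; RefSeq promoter sequences (GRCm38.p6) were matched for 1 of the 4 members. The window runs from 250 bases before to 50 bases after the start site, chr2:19657481-19657780, plus strand. Capitals mark an E-box (CACGTG), 54 bases before the start, that overlaps a half-site of the cyclic AMP response element (TGACG), 50 bases before it.
Otud1 promoter: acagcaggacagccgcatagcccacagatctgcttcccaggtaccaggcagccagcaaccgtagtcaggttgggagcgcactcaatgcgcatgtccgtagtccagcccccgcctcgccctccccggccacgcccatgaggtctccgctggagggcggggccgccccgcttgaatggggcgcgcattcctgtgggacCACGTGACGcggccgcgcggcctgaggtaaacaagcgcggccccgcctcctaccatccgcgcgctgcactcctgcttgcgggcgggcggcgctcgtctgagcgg
Both strands were searched. CACGTG occurs in 7.15% and TGACG in 20.8% of the 32851 promoters of the same length. The AP-1 motif TGANTCA (7.81% of promoters) and the CArG box, the binding motif of SRF (1.63%), had no match in this window. A match is a run of letters and says nothing of binding.

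Abra (ENSMUSG00000042895, chr15:41864076-41869720, minus strand, no other gene over its body) was also lower in the Prkce-low libraries, with a narrower gap. Its level was 28.9 CPM in KO replicate 2, 31.9 CPM in KO replicate 1 and 44.1 CPM in WT replicate 2. It was 68.9 CPM in KO replicate 3, 86.6 CPM in WT replicate 3 and 68.4 CPM in WT replicate 1. WT replicate 2 was the highest of the low libraries. Its Poisson interval (40.4 to 48.0 CPM) lay above those of KO replicate 2 (up to 31.8 CPM) and KO replicate 1 (up to 34.6 CPM). WT replicate 3 was the highest of all, as for Otud1. The gap was 0.63 on the log2 scale, or 1.54-fold, and 15 tested genes had a wider one.

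Ccn5 (ENSMUSG00000027656, chr2:163820861-163833146, plus strand, no other gene over its body) went the other way. Its level was 84.4 CPM in KO replicate 2, 76.6 CPM in KO replicate 1 and 99.1 CPM in WT replicate 2. It was 42.5 CPM in KO replicate 3, 27.2 CPM in WT replicate 3 and 35.4 CPM in WT replicate 1. WT replicate 2 was the highest library and WT replicate 3 the lowest. The gap was 0.84 on the log2 scale, or 1.79-fold, with 7 tested genes above it.

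Gm6969 (ENSMUSG00000066553, chr12:24638669-24639010, minus strand) was likewise higher in the Prkce-low libraries. Its level was 82.8 CPM in KO replicate 2, 105 CPM in KO replicate 1 and 73.0 CPM in WT replicate 2, from 1142, 1843 and 867 counts. It was 32.4 CPM in KO replicate 3, 26.1 CPM in WT replicate 3 and 19.5 CPM in WT replicate 1, from 661, 595 and 325 counts. The gap was 1.16 on the log2 scale, or 2.24-fold, and 3 tested genes had a wider one. Within each set the order of the libraries differed from that of Ccn5: KO replicate 1 was the highest for Gm6969 and the lowest of the Prkce-low libraries for Ccn5.

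**Figure D1:**
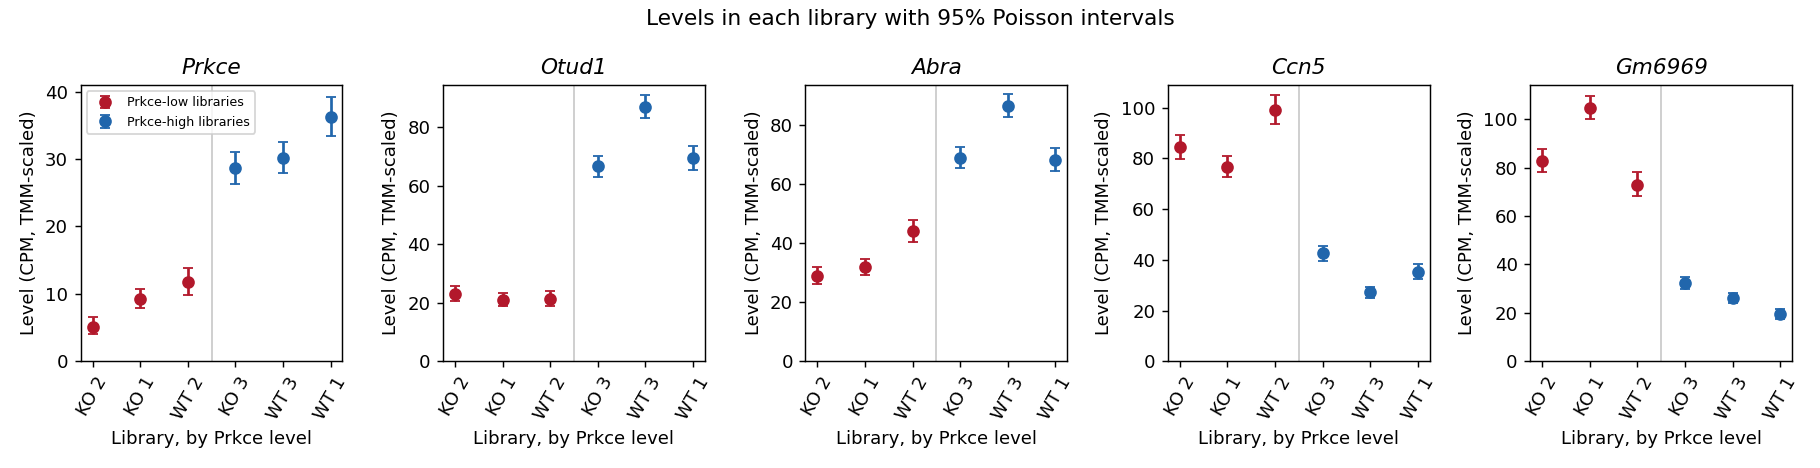
Level of Prkce and the 4 genes in each library (CPM, TMM-scaled, y axis from 0), with 95% Poisson intervals that cover counting error only; libraries run from the lowest to the highest Prkce level and are named by library name. Otud1 (21.0 to 23.0 against 66.6 to 86.9 CPM) and Abra lie lower, and Ccn5 and Gm6969 (73.0 to 105 against 19.5 to 32.4 CPM) higher, in the Prkce-low libraries (red) than in the Prkce-high libraries (blue).

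Gm6969 is annotated on chromosome 12, and its sequence closely resembles that of a gene on chromosome 17. Among all annotated mouse transcripts (GENCODE M21), those of only 2 other genes matched over at least 50% of its 342 bases at 90% identity or more: Cox7a2l and another processed pseudogene, Gm10242, which had 0 counts in all 6 libraries. Cox7a2l (ENSMUSG00000024248, chr17:83501918-83517330, minus strand) encodes an assembly factor of respiratory supercomplexes, also called SCAF1, and its gene ends 2.65 Mb before the start of Prkce. Of the bases of Gm6969 that align to the transcript Cox7a2l-201, 334 are identical and 2 differ (99.4% identity), and the longest identical stretch is 213 bases. A further 6 bases of Gm6969 have no counterpart in the reference Cox7a2l transcript. No other gene's transcript matched those of Otud1, Abra or Ccn5 by this measure.

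The stretch around these 6 bases is shown because it is where the reference sequences of pseudogene and gene part. Gm6969 is given from chr12:24638756-24638833, minus strand, and Cox7a2l from the same part of its transcript, which joins exons 2 and 3 and lies in the coding sequence. Capitals mark the 6 bases without counterpart and, directly after them, a base that differs between the pair.
Gm6969: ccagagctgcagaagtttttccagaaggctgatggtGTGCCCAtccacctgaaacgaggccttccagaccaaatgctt
Cox7a2l: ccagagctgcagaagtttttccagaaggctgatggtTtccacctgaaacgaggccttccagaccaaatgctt
C57BL/6 mice, the strain of the reference genome, are known to carry a Cox7a2l allele that lacks a short in-frame stretch which other inbred strains, 129 among them, have. The counts carry no sequence, so which allele each mouse had, and whether a read counted for Gm6969 came from either gene, was not tested.

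Read beside Cox7a2l, the counts of Gm6969 took a larger share in the Prkce-low libraries. Of the counts of both genes, Gm6969 held 26.3% in KO replicate 2 (95% exact binomial interval 24.99% to 27.6%), 34.2% in KO replicate 1 (32.9% to 35.4%) and 24.3% in WT replicate 2 (22.9% to 25.7%). It held 10.3% in KO replicate 3 (9.53% to 11.0%), 8.72% in WT replicate 3 (8.07% to 9.42%) and 8.503% in WT replicate 1 (7.64% to 9.43%). The shares do not overlap between the sets. Gm6969 was chosen for this split and Cox7a2l varied less, so the parting of the shares follows largely from that choice. It is a description only. Cox7a2l alone was at 232, 202 and 228 CPM in KO replicate 2, KO replicate 1 and WT replicate 2, and at 283, 273 and 210 CPM in KO replicate 3, WT replicate 3 and WT replicate 1. These levels overlap through WT replicate 1. The sum of both genes lay between 299 and 315 CPM in 5 libraries, Prkce-low and Prkce-high alike, and at 229 CPM in WT replicate 1. By library name, Cox7a2l averaged 239 ± 41 CPM in KO and 237 ± 33 CPM in WT libraries (SD, n = 3 each), with an adjusted p of 0.99993 (edgeR).

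**Figure D2:**
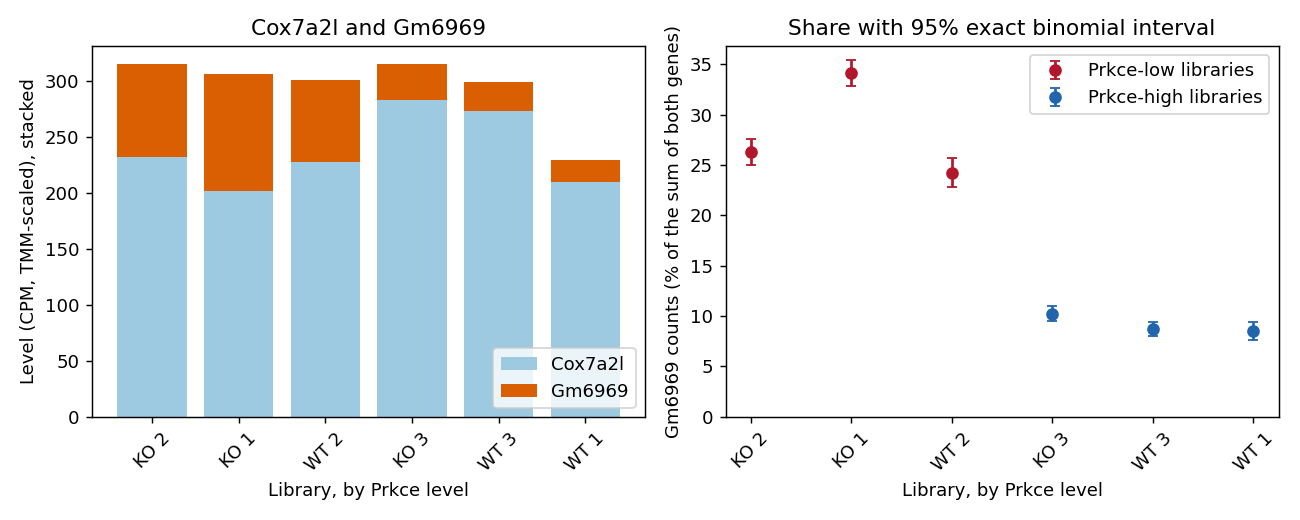
Left, stacked levels of Cox7a2l (blue) and Gm6969 (orange) in CPM per library; right, the share of Gm6969 in the counts of both genes, with 95% exact binomial intervals that cover counting error only. The stacked sum lies at 299 to 315 CPM in all libraries but WT replicate 1 (229 CPM), while the share is 24.3% to 34.2% in the Prkce-low libraries and 8.503% to 10.3% in the Prkce-high libraries. Gm6969 was chosen for this split, so the parting of the shares is a description only.

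How common such a split is can be read from all genes tested. Of 14708, 869 (5.91%) had all 3 Prkce-low libraries below all 3 Prkce-high libraries and 897 (6.1%) had them all above, together 1766 or 12%. The 4 members are in these counts by choice, so nothing is read from it. By the width of the gap, Otud1 stood at place 2, Gm6969 at 4, Ccn5 at 8 and Abra at 16 of all genes tested. The genes between them that no rule had singled out include Atf3, a stress-induced transcription factor (gap 0.98, lower in the Prkce-low libraries), Slc20a1, a phosphate transporter (0.81, lower), Sfrp2, a secreted modulator of Wnt signalling (0.76, higher), and Ccn3, a relative of Ccn5 (0.70, higher). They were named after their values were seen.

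**Figure D3:**
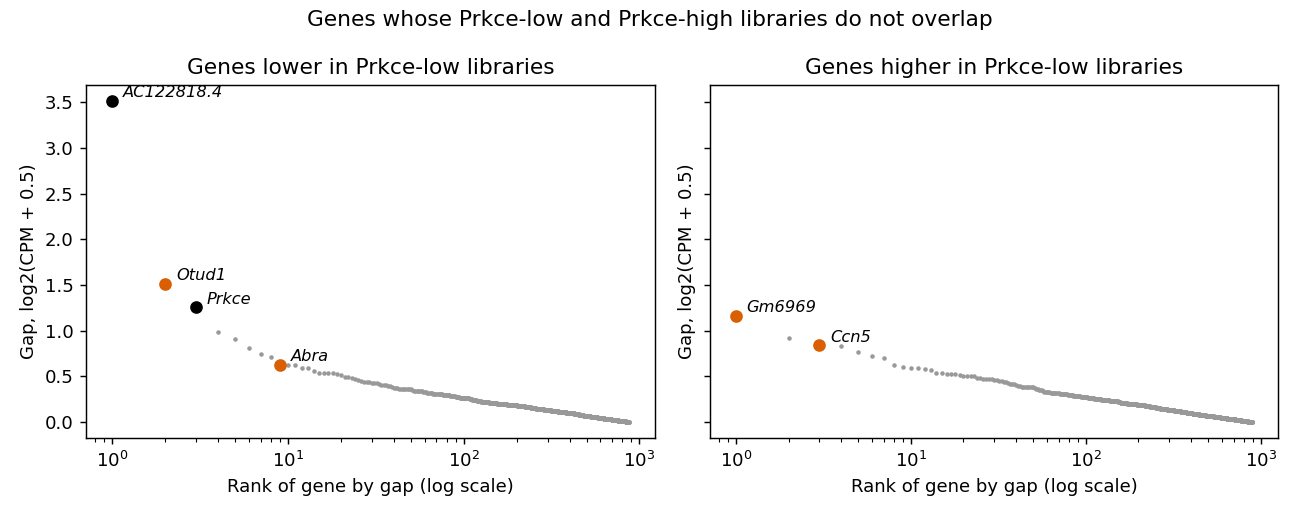
Gap between the nearest Prkce-low and Prkce-high libraries (log2(CPM + 0.5), y axis) for every tested gene whose sets do not overlap, by rank on a log axis; left 869 genes lower and right 897 genes higher in the Prkce-low libraries. Otud1 (1.51) has the second widest gap of the genes lower in the Prkce-low libraries and Gm6969 (1.16) the widest of those higher, with Ccn5 (0.84) and Abra (0.63) below them.

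The libraries also differ in name series and in Y-linked expression. Since the genes were chosen for parting all 6 libraries, any subset parts as well, and the values within these kinds of library are a description only. Among the libraries whose names start with Old, KO replicate 1 against WT replicate 1 gave Otud1 levels of 21.0 against 69.4 CPM, Abra 31.9 against 68.4 CPM, Ccn5 76.6 against 35.4 CPM and Gm6969 105 against 19.5 CPM. The Y-linked genes Ddx3y, Eif2s3y, Kdm5d and Uty summed to 1.09 CPM in WT replicate 2 and 1.08 CPM in WT replicate 1, and to 78.9 CPM or more in the other 4. In the pair low in these genes, Otud1 was at 21.3 CPM in WT replicate 2 and 69.4 CPM in WT replicate 1, Abra at 44.1 and 68.4 CPM, Ccn5 at 99.1 and 35.4 CPM, and Gm6969 at 73.0 and 19.5 CPM.

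Compared by the labels, which is the comparison of KO with WT that the study set out to make, none of the 4 genes passed the test. Neither reading is fully separate from the split that chose the genes, because each places 4 of the 6 libraries as the Prkce level does. By library name, 0 of 14708 genes (0%) passed edgeR's quasi-likelihood test at an adjusted p of 0.05, with 219 at an unadjusted p under 0.05 and 0 called by DESeq2 or limma-voom. Otud1 averaged 36.9 ± 25.8 CPM in KO and 59.2 ± 34.0 CPM in WT libraries (SD, n = 3 each), a log2 fold change of -0.68 (SE 0.68). Abra averaged 43.2 ± 22.3 and 66.3 ± 21.3 CPM, a log2 fold change of -0.62 (SE 0.37). Ccn5 averaged 67.8 ± 22.3 and 53.9 ± 39.4 CPM, a log2 fold change of 0.34 (SE 0.54). Gm6969 averaged 73.3 ± 37.1 and 39.5 ± 29.2 CPM, a log2 fold change of 0.90 (SE 0.66). edgeR gave all 4 an adjusted p of 0.99993, and KO and WT libraries overlapped. Within the 3 pairs of libraries that share a replicate number, Abra was lower in KO in 3 of 3 and Gm6969 higher in 3 of 3, while Otud1 was lower in 2 and Ccn5 higher in 2. With the replicate number as a block, the log2 fold change of Abra was -0.68 (SE 0.17) and that of Gm6969 0.94 (SE 0.58), each at an adjusted p of 0.9999 in edgeR. The libraries low in Y-linked genes, WT replicate 1 and WT replicate 2, are both WT by library name. This comparison is thus not separate from Y-linked expression. With that expression as a covariate, the log2 fold changes were -1.07 (SE 0.74) for Otud1 and -0.89 (SE 0.43) for Abra. They were 1.17 (SE 0.57) for Ccn5 and 1.36 (SE 0.88) for Gm6969, and 0 genes passed.

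By the genotype field, 2 genes (0.0136%) passed, Myl2 and the lincRNA Gm26917, and again no member. Myl2 is a ventricular marker, and the summed ventricular markers, Myl2 among them, also parted this reading, at 540, 700 and 442 CPM in the KO libraries against 153, 371 and 289 CPM in the WT libraries; their part in the call was not tested. By this field, Otud1 averaged 43.1 ± 38.0 CPM in KO and 53.0 ± 26.0 CPM in WT libraries (SD, n = 3 each), a log2 fold change of -0.29 (SE 0.75). Abra averaged 54.2 ± 28.7 and 55.4 ± 23.0 CPM, at -0.03 (SE 0.46). Ccn5 averaged 67.6 ± 36.8 and 54.1 ± 26.5 CPM, at 0.32 (SE 0.55), and Gm6969 67.9 ± 39.5 and 44.9 ± 33.5 CPM, at 0.60 (SE 0.74). Over the 4, edgeR gave adjusted p-values of 0.935 to 0.994. With the replicate number of the titles as a block, 51 genes passed by the genotype field, none of them a member. The direction of Otud1, Abra and Ccn5 by the genotype field turned when single libraries were left out.

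Without the 2 libraries whose Prkce level goes against the label, the values were larger, as the choice of libraries fixes. By library name without WT replicate 2 and KO replicate 3, the comparison that first singled out these genes, 6 of 14701 genes passed (0.0408%), the 4 members, Prkce and AC122818.4. The log2 fold changes were -1.83 (SE 0.21) for Otud1, -1.35 (SE 0.21) for Abra, 1.37 (SE 0.21) for Ccn5 and 2.04 (SE 0.22) for Gm6969. Ccn5 and Abra were the members nearest to the threshold, both at an adjusted p of 0.0304 by edgeR, and the next genes outside it were the mitochondrial transfer RNA mt-Te (-1.59, SE 0.28, adjusted p = 0.106) and Atf3 (-1.54, SE 0.26, adjusted p = 0.120). By genotype field without KO replicate 2 and WT replicate 3, 3 of 14976 genes passed (0.02%), and of the members only Otud1 did. There the log2 fold changes were -1.70 (SE 0.18) for Otud1, -0.87 (SE 0.20) for Abra, 1.16 (SE 0.20) for Ccn5 and 1.76 (SE 0.28) for Gm6969. These 2 comparisons share KO replicate 1 and WT replicate 1.

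**Figure D4:**
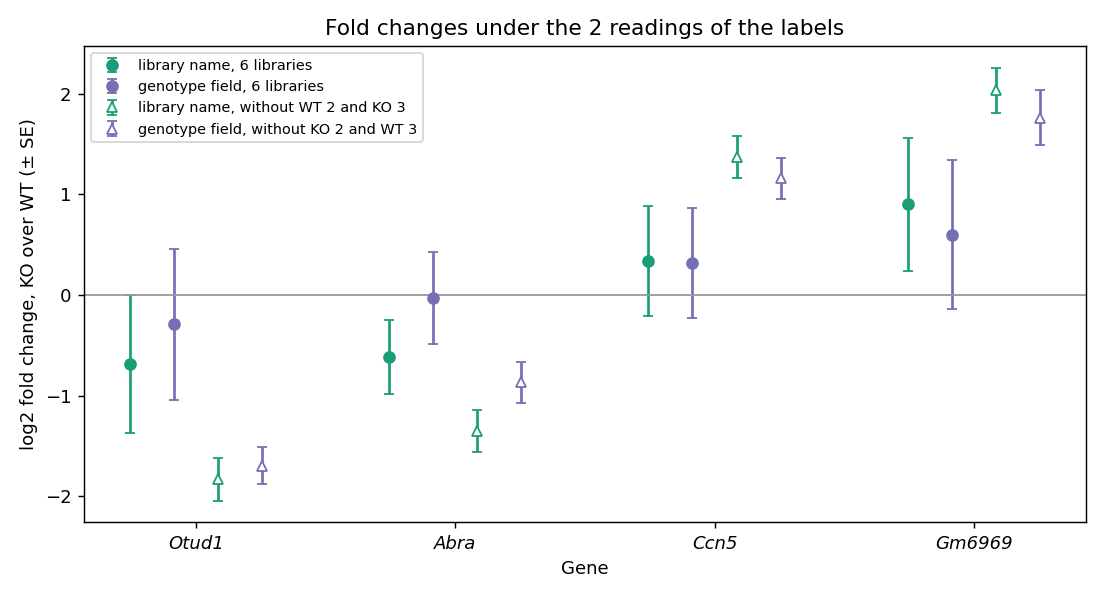
Log2 fold change of KO over WT (± SE, edgeR) for each gene by library name (green) and genotype field (purple), with all 6 libraries (filled circles) and without the 2 libraries at odds with the Prkce level in that reading (open triangles). With 6 libraries the values lie between -0.68 and 0.90 and none passed the test; the triangles rest on libraries chosen by Prkce and are a description.

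The gene nearest in pattern was a transcription factor gene for both Otud1 and Abra. Likeness was measured as the root-mean-square difference (RMS) between mean-centred log2(CPM + 0.5) values over the 6 libraries, which shares the libraries, their depth and their scaling between all genes. A gene at one level in all libraries would score the member's own spread: 0.88 for Otud1, 0.59 for Abra, 0.69 for Ccn5 and 0.90 for Gm6969. The medians over all genes lie close to these values and mostly restate that spread. Since the members were chosen for the split, the genes nearest to them are bound to share it. The gene nearest to Otud1 was Atf3, at an RMS of 0.32 against a median of 0.91 over all other tested genes, followed by the mitochondrial transfer RNA mt-Ty (0.37) and Abra (0.38). Atf3 was at 59.5, 52.1 and 52.2 CPM in KO replicate 2, KO replicate 1 and WT replicate 2, and at 244, 206 and 118 CPM in KO replicate 3, WT replicate 3 and WT replicate 1. It did not overlap between the sets, but WT replicate 1 stood well below the other 2 high libraries. The genes nearest to Abra were Egr3, an immediate early transcription factor (RMS 0.17, median over all genes 0.63), the lectin receptor gene Clec12b (0.18) and Gadd45g, a stress-induced growth arrest gene (0.20). Egr3 was at 8.56, 9.88 and 15.99 CPM in the Prkce-low libraries KO replicate 2, KO replicate 1 and WT replicate 2 and at 18.3, 22.5 and 18.7 CPM in KO replicate 3, WT replicate 3 and WT replicate 1. Among other rapidly induced genes, chosen after their values were seen, some parted the sets and some did not. Ier5 (gap 0.30), Errfi1 (0.29), Btg2 (0.14) and Trib1 (0.13) were lower in the Prkce-low libraries without overlap, as were 5.91% of all genes tested. They come from no fixed list, so no share of such genes is read from them. Fos and Egr1 overlapped: Fos ran from 57.9 to 137 CPM in the Prkce-low libraries and from 107 to 137 CPM in the Prkce-high libraries, and Egr1 from 210 to 348 CPM and from 185 to 384 CPM.

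Ccn5 had its nearest pattern in a gene of its own family. Ccn3, a secreted CCN protein also known as Nov, was at an RMS of 0.14 from Ccn5, against a median of 0.73 over all genes, followed by Sfrp2 (0.21) and Ccdc148 (0.25). Ccn3 was at 13.9, 12.5 and 20.1 CPM in KO replicate 2, KO replicate 1 and WT replicate 2, and at 7.49, 5.22 and 7.14 CPM in KO replicate 3, WT replicate 3 and WT replicate 1. Sfrp2 was at 63.4, 42.0 and 74.8 CPM in the same Prkce-low libraries, and at 22.4, 15.4 and 24.5 CPM in the same Prkce-high libraries. In all 3 genes WT replicate 2 was the highest library and WT replicate 3 the lowest. The genes nearest to Gm6969 were Cthrc1 (RMS 0.30, median over all genes 0.93), the mitotic gene Cdca8 (0.37) and Gm12250 (0.39), each at 0 to 3.29 CPM in every library.

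**Figure D5:**
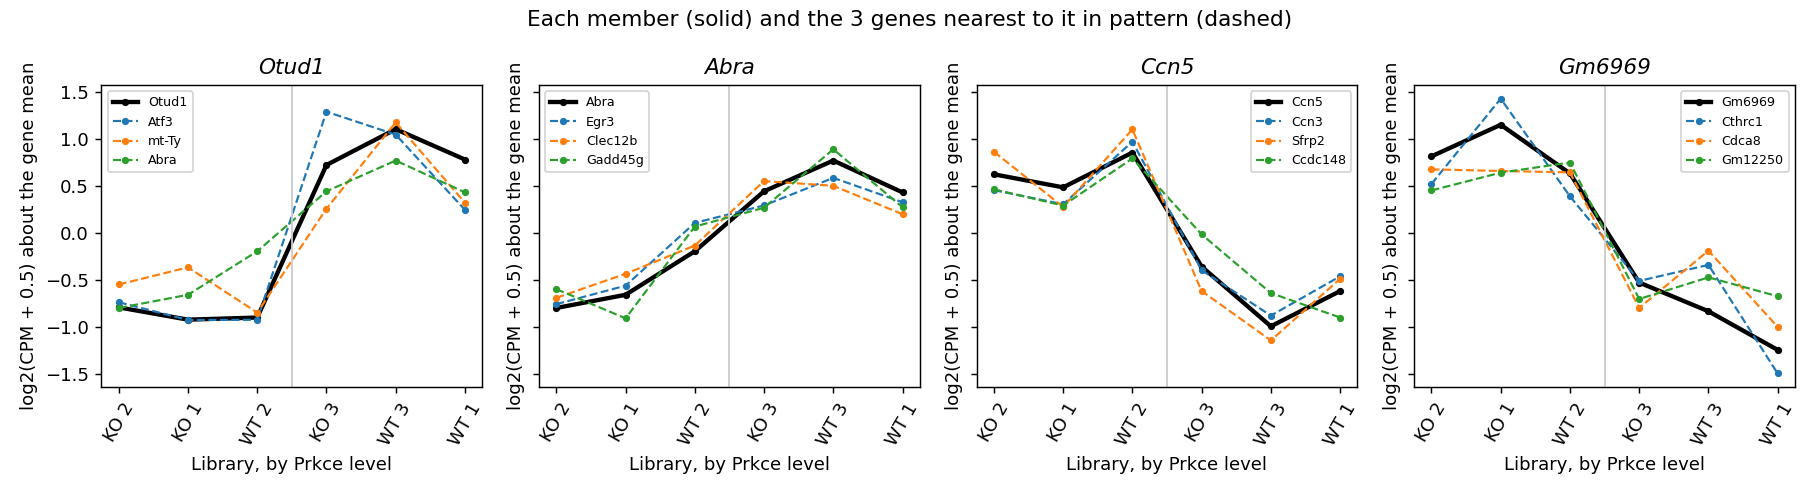
Log2(CPM + 0.5) about each gene's own mean (y axis) in the 6 libraries ordered by Prkce level, for each of the 4 genes (solid black) and the 3 tested genes nearest to it in pattern (dashed). Ccn3 follows Ccn5 most closely (RMS 0.14), and Egr3 follows Abra (RMS 0.17).

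The CCN family, which holds secreted regulators of matrix and growth factor signals, had 5 of its 6 genes tested. By library name 3 were higher and 2 lower in KO with a median log2 fold change of 0.08, against 6694 higher and 8014 lower and a median of -0.02 over all 14708 genes, and 0 passed in either reading. Along Prkce, Ccn5, which was chosen for it, and Ccn3 parted the libraries, beside 12% of all genes. Ccn1, Ccn2 and Ccn4 overlapped: Ccn2, the profibrotic member formerly called CTGF, was at 1048, 629 and 1225 CPM in KO replicate 2, KO replicate 1 and WT replicate 2, and at 1063, 1310 and 1066 CPM in KO replicate 3, WT replicate 3 and WT replicate 1. Ccn6 had at most 12 counts in any library and was not tested.

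Genes of transforming growth factor beta (TGF-beta) signalling and matrix, which CCN5 is known to oppose, parted the Prkce-low from the Prkce-high libraries in 7 of 15 cases (46.7%), against 12% of all genes; the list was written with earlier results of these data known. Collagens were among the 6 that were higher in the Prkce-low libraries. Col3a1 was at 582, 430 and 516 CPM in KO replicate 2, KO replicate 1 and WT replicate 2, and at 242, 322 and 249 CPM in KO replicate 3, WT replicate 3 and WT replicate 1. Col1a1 had 160, 155 and 235 CPM in those Prkce-low libraries and 78.4, 146 and 88.2 CPM in those Prkce-high libraries. By library name 8 of the 15 were higher and 7 lower in KO, and by genotype field 9 and 6, and 0 passed in either. The 2 with the smallest p by library name were Ltbp2 (0.78, SE 0.33) and Ccn2 (-0.39, SE 0.21).

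Of the summed markers of other cell types, only those of valve and cartilage cells and of smooth muscle and pericytes parted the sets. Both were higher in the Prkce-low libraries, where Ccn5 and the collagens were higher. The sums for endothelial, epicardial, adipocyte, Schwann, macrophage, lymphocyte and skeletal muscle markers overlapped between the sets. As background to the counts of single markers, 12% of all genes tested parted the sets. The 6 markers of valve and cartilage cells (Sox9, Acan, Comp, Chad, Fmod and Cilp2, of which 5 were tested and Chad was at 0 in all libraries) summed to 176 to 215 CPM in the Prkce-low libraries and 146 to 170 CPM in the Prkce-high libraries, and 2 of the 5 tested parted the sets, Sox9 and Comp. Comp, a matrix protein of tendon and cartilage, was at 68.7 to 98.0 against 39.9 to 59.9 CPM. The 7 markers of smooth muscle and pericytes summed to 771 to 1004 against 674 to 769 CPM, sums that barely separate; 3 of the 7 parted the sets (Cnn1, Pdgfrb and Kcnj8), and Acta2, Myh11, Tagln and Rgs5 overlapped. The 7 fibroblast markers, of which 6 were tested and Tcf21 was at 0, summed to 1724 to 2229 against 1575 to 1883 CPM, which overlap; the 2 that parted the sets were the collagen genes Col1a1 and Col3a1 themselves. What part the cell makeup of each atrium had in these levels was not tested.

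Of the 17 genes of the Abra pathway, 16 were tested. Srf had a count of 0 in all libraries, which was not tested as absence of its RNA. Abra was chosen for parting the libraries; of the other 15, 5 parted them, all lower in the Prkce-low ones, beside 5.91% of all genes in that direction. The list was written with earlier results known. They were Myocd, a muscle coactivator of SRF, the kinases Rock1 and Rock2 downstream of RhoA, the transcription factor gene Mef2a, and Ppargc1a, a coactivator of mitochondrial genes. Their gaps on the log2 scale were 0.27 for Mef2a, 0.19 for Myocd and Ppargc1a, and only 0.03 for Rock1 and 0.02 for Rock2. Myocd was at 17.04, 27.1 and 31.7 CPM in KO replicate 2, KO replicate 1 and WT replicate 2, and at 36.2, 40.1 and 36.2 CPM in KO replicate 3, WT replicate 3 and WT replicate 1. Ppargc1a was at 40.5 to 56.0 CPM in the Prkce-low libraries and 63.9 to 95.4 CPM in the Prkce-high libraries. The coactivator gene Mrtfa and the GTPase gene Rhoa overlapped. By library name 12 of 16 were lower in KO and 4 higher, with a median log2 fold change of -0.26, and 0 passed; by genotype field 10 were lower and 6 higher, with a median of -0.04, and 0 passed. The smallest p by library name were those of Ppargc1a (-0.58, SE 0.22) and Mrtfa (-0.52, SE 0.23).

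Of 38 targets of SRF and the MRTF coactivators, 35 were tested. Acta1, Actc1 and Srf had a count of 0 in all libraries, and whether the RNA was absent or lost in the counting was not tested. Of the tested targets, 4 (11.4%) parted the libraries, a share near the 12% of all genes and so no result about these targets. Cnn1 and Myl9 were higher, and Fhl1 and Mcl1 lower, in the Prkce-low libraries. By library name 16 were higher and 19 lower in KO with a median of -0.04, by genotype field 26 higher and 9 lower with a median of 0.07, and 0 passed in either. The smallest p by library name were those of Myl9, a myosin light chain of smooth muscle (0.61, SE 0.27), and Ccn2.

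Among the 17 OTU-family genes, 13 were tested, and besides Otud1, which was chosen for it, 2 of the other 12 parted the libraries, a share near the 12% of all genes: Vcpip1 lower and Otub1 higher in the Prkce-low libraries. Vcpip1 had a narrow split, at 10.5 to 14.6 against 14.9 to 22.3 CPM, and Otub1 was at 64.2 to 75.6 against 54.0 to 58.1 CPM. By library name 4 were higher and 9 lower in KO (median -0.09), by genotype field 5 and 8 (median -0.05), and 0 passed; Tnfaip3 (-0.64, SE 0.37) and Otud4 (-0.33, SE 0.25) had the smallest p by library name. Of 8 genes for proteins that OTUD1 is reported to act on, all were tested and 1 parted the libraries, Trp53, which is 12.5% against 12% of all genes and no result about them. Of these, 4 were higher and 4 lower in KO by library name (median 0.04), and 6 and 2 by genotype field (median 0.13), and 0 passed; Trp53 (0.26, SE 0.20) and Smad7 (-0.18, SE 0.14) had the smallest p. Of 12 Wnt target genes, 7 were tested and 2 parted the libraries, beside 12% of all genes, Nkd1 (4.43 to 6.67 against 2.30 to 3.99 CPM) and Nkd2 (5.74 to 7.98 against 4.92 to 5.24 CPM), both feedback inhibitors of Wnt signalling. By library name 3 Wnt targets were higher and 4 lower in KO (median -0.06), by genotype field 4 and 3 (median 0.02), and 0 passed; Bambi (-0.30, SE 0.17) and Rnf43 (0.82, SE 0.48) had the smallest p.

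The nearest tested genes beside each member mostly did not follow it. Around Ccn5, the 4 nearest (Ada, Pkig, Rims4 and Ywhab) overlapped between the Prkce-low and Prkce-high libraries, and so did the 4 nearest to Gm6969 (Taf1b, Grhl1, Klf11 and Cys1). Klf11, which starts 12.3 kb from Gm6969, was at 13.4 to 17.6 CPM in the Prkce-low libraries and 14.2 to 16.3 CPM in the Prkce-high libraries. Around Otud1, Pip4k2a, Msrb2 and Arhgap21 overlapped, and Etl4 was lower in the Prkce-low libraries by a gap of 0.07. Around Abra, 3 of 4 were lower without overlap, beside 5.91% of all genes, by gaps of 0.03 to 0.07 against 0.63 for Abra itself: Oxr1, 3.03 kb away, was at 70.1 to 89.5 CPM in the Prkce-low and 91.3 to 157 CPM in the Prkce-high libraries, Angpt1 at 60.9 to 86.3 and 90.7 to 180 CPM, and Zfpm2 at 11.97 to 24.7 and 25.9 to 30.4 CPM. Gm17473 overlapped.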

How the data were processed

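The authors deposited raw, unscaled counts of reads per Ensembl gene for 6 libraries. The submitters' processing notes name HISAT2 2.1.0, featureCounts 1.5.0-p3, FastQC 0.11.5, MultiQC 1.7 and the build GRCm38. For the annotation release and the counting of reads that match several genes, the sources used here give nothing; TruSeq v2 reads carry no strand. Symbols were found for 54723 of 54838 identifiers, and coordinates come from GENCODE M21. Counts of 31167 genes are 0 in all libraries. Among the listed genes these include Acta1, Actc1, Srf, Tcf21 and Chad. Whether absence of the RNA or the counting of reads gave these 0 counts was not tested.

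Differences were tested with edgeR 4.0.16 in R 4.3.3 (quasi-likelihood F test, robust, TMM, filterByExpr, two-sided, Benjamini-Hochberg adjustment over all genes, threshold 0.05). The SE was taken as |log2 fold change| divided by the root of F. DESeq2 1.42.0, limma 3.58.1 (voom), other scalings and filters, covariates and libraries left out were alternatives. The test was also run on data simulated with clean groups by library name. That setting lacks the label conflict, and no result above rests on it. Poisson and binomial intervals (95%) cover counting error only. Transcripts were compared with BLAST+ 2.17.0 and aligned with Biopython 1.88. Nothing says whether mice shared litters, so p-values measure the spread between these 6 libraries. All pairs of libraries differed beyond counting noise (chi-square over degrees of freedom at least 20.4).

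The members and gene lists were chosen with earlier results of these data known. Genes named are the members, Prkce, the 2 nearest tested genes on each side, the 3 nearest in pattern, genes passing a label comparison, the 2 list members with the smallest p and those just outside the threshold; others, such as Cox7a2l, Comp and the list members that parted the libraries, were chosen after their values were seen. For 1 list member, values are not reported here. The deviations of same-numbered libraries from their group means correlated across genes at r = 0.125 to 0.172 by library name and 0.118 to 0.306 by genotype field. No such value was computed for differently numbered libraries, so these do not show that the numbers mark true pairs. The title's replicate number was used as a pairing block in an alternative only.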

Additional observations from a re-analysis of the deposited data

How the results depend on the processing

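The gaps of the 4 genes moved by less than the spread within a set under RLE scaling, scaling to total counts with or without mitochondrial genes, pseudocounts of 0.1 and 1, and without WT replicate 1 (an alternative chosen after seeing the data). The number of genes that part the Prkce-low from the Prkce-high libraries was 2888 without WT replicate 1, since fewer libraries have to part, against 1766. By library name the count of genes passing was 1 with no filter beyond 1 count, 6 without the libraries WT replicate 2 and KO replicate 3, and 0 to 4 leaving out 1 library (2 without WT replicate 1 and 4 without WT replicate 3), against 0. By genotype field it was 27 in DESeq2, 1 in limma-voom, 25 with no filter, 51 with the replicate block, 7 with the name series as covariate, and 0 to 2 leaving out 1 library, against 2; it was 0 if KO replicate 3 or WT replicate 1 was dropped and 1 for KO replicate 2 and for either of WT replicates 2 and 3. The replicate block gave 0 by library name and changed no call of the 4 genes. The cause of these moves was not tested.

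By genotype field the direction turned for Otud1 without KO replicate 1 (0.036) or WT replicate 2 (0.021), for Abra without KO replicate 1 (0.24), KO replicate 3 (0.16), WT replicate 1 (0.14) or WT replicate 2 (0.09), and for Ccn5 without WT replicate 2 (-0.069), each with an adjusted p of 0.951 or more in edgeR. By library name no direction turned in the alternatives run, but leaving out 1 library moved the values widely: Otud1 from -1.43 (without KO replicate 3) to -0.30 (without WT replicate 3), Abra from -1.13 (without KO replicate 3) to -0.38 (without WT replicate 3), Ccn5 from 0.017 (without WT replicate 3) to 1.12 (without WT replicate 2) and Gm6969 from 0.55 (without KO replicate 1) to 1.68 (without WT replicate 2), none of them passing. When the libraries at odds with Prkce were dropped, all 4 passed by library name (-1.83 for Otud1, -1.35 for Abra, 1.37 for Ccn5 and 2.04 for Gm6969). Without KO replicate 2 and WT replicate 3, Otud1 passed by genotype field (-1.70), while Abra (-0.87), Ccn5 (1.16) and Gm6969 (1.76) did not.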
